A study of Mus musculus with 12 samples.

Results

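The RNA of the non-cardiomyocyte fraction (NonCM) of control mouse hearts was compared with that of the cardiomyocyte fraction (CM) of control hearts, to describe which genes and cell types each fraction held. The members were the 6 libraries labelled control of the 12 in the series, 3 per fraction, and were chosen by fraction and genotype in the labels. Of 46983 gene symbols, the 12244 with a mean of 2 CPM (counts-per-million reads) or more over the 6 libraries were tested.

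All mice were of the strain labelled BL6/C57. They received 3 daily doses of tamoxifen on postnatal days 1 to 3, had a myocardial infarction (MI) at postnatal day 2, and gave both fractions 2 weeks after surgery, with 3 hearts per condition. The labels give the genotype MCM/+ to the control libraries and MCM/+ with Wls fl/fl to the other 6, a floxed allele of the Wnt transport gene Wls. The labels name neither the promoter that drives MCM nor the heart from which each library came, and they call the cells adult although the hearts were young. There was no uninjured heart among the libraries, so each value describes the injured state. The fractions were deposited as separate tables, and a difference between fractions cannot be told apart from one between separately handled sets of libraries.

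Recovered reads numbered 5171769 to 6517002 in the CM control libraries and 1160146 (replicate 1), 8963762 and 9262307 in the NonCM control libraries, so that 1 read in NonCM replicate 1 equals 0.862 CPM. In each fraction, replicate 3 resembled a mixture of the other two. Its counts differed from a mixture of replicates 1 and 2 of the same fraction (56% and 44% in CM, 50% and 50% in NonCM) by 1.013 and 1.003 times the variance expected from read sampling, over 8385 and 9602 genes, while replicates 1 and 2 treated in the same way gave 1.28 to 1.98 times. The mixing percentages were those of the smallest ratio, and the 1% of genes with the largest residuals were left out. Both steps lower the ratios, so they are to be compared with each other and not with 1. Replicate 3 was therefore not taken as surely independent, and the counts are given with and without replicate 3 of both fractions. Wls, the targeted gene, stood at 38.4, 31.5 and 33.1 CPM in CM control and at 14.3, 9.01 and 14.8 CPM in CM Wls fl/fl. Esr1, the estrogen receptor gene, stood at 2.26, 5.22 and 3.07 CPM in CM control and at 264, 204 and 252 CPM in CM Wls fl/fl, and at 13.8, 4.91 and 5.51 CPM in NonCM control and 122, 102 and 111 CPM in NonCM Wls fl/fl. The labels give the MCM allele to both genotypes, and the low Esr1 levels of the control libraries go against that label. Whether those hearts carried the allele was not tested. The part of this in any result was not tested.

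The mammalian heart is built from a few main cell classes. Cardiomyocytes are large, multinucleate or polyploid muscle cells packed with sarcomeres and mitochondria, and they burn fatty acids to contract. Fibroblasts lay down the collagen matrix, endothelial cells line capillaries, larger vessels, lymphatics and the inner heart wall, pericytes and smooth muscle cells wrap the vessels, and macrophages clear debris after infarction. Cell fractions are usually made by digesting the heart and letting the heavy muscle cells settle, so a fraction is an enrichment and not a pure population. In bulk RNA, fewer cells of a type and less RNA per cell cannot be told apart.

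The fractions differed widely, and the differences were not symmetric. By limma on log2(CPM + 1), with adjusted p under 0.05 as the call, 4697 genes (38.4% of those tested) were higher in NonCM and 1642 (13.4%) were higher in CM. A difference of at least 2-fold was called for 1744 genes (14.2%) in NonCM but for only 17 (0.139%) in CM. The 17 became 11 without NonCM replicate 1 and 34 without NonCM replicate 3. Among the 6256 genes with a mean of 20 CPM or more, 595 were at least 2-fold higher in NonCM, 90 of them at least 8-fold, against 2 at least 2-fold higher in CM (Gm21747, which the Wls fl/fl libraries did not call, and mt-Rnr1). Many of the CM-higher genes lay in a narrow band: of the 1371 at this level, 778 (56.8%) had a log2 difference between -0.8 and -0.4.

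Values in CPM are shares of a library, so a rise of some genes lowers the rest. The median difference of all tested genes was 0.20 on the log2 scale, and TMM and upper quartile scaling moved it to -0.02 and -0.17. The share of calls that were higher in NonCM moved with it, from 74.1% to 50.1% and 35.5%. With TMM scaling 3050 genes were higher in NonCM and 3040 in CM, of which 61 were at least 2-fold higher in CM, and with upper quartile scaling the numbers were 2429, 4414 and 330. List medians and counts of the main fit below are to be read against the 0.20, the 38.4% higher in NonCM and the 13.4% higher in CM of all genes. List counts with TMM or upper quartile scaling are to be read against the numbers of all genes with that scaling, given above. Without replicate 3 of both fractions, the numbers of all genes were 3137 higher in NonCM and 922 higher in CM. A gene that passed the level filter only through the fraction where it is high had to differ, so such genes are given by their values, without a test. List counts can include such genes, so the counts of lists with low members are descriptions and no test. Without replicate 3 of both fractions, 3114 of the NonCM-higher and 913 of the CM-higher genes were called in the same direction, and 1631 of the 1744 genes at least 2-fold higher in NonCM passed both criteria again. Of the 17 genes at least 2-fold higher in CM, 10 did. In the 6 Wls fl/fl libraries, which come from other hearts, 4492 of 4660 NonCM-higher genes and 1557 of 1641 CM-higher genes tested there were called in the same direction, and 1 gene was called in the opposite one. Both criteria were met there again by 1660 of 1723 genes at least 2-fold higher in NonCM, but by only 1 of 17 in CM.

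**Figure D1:**
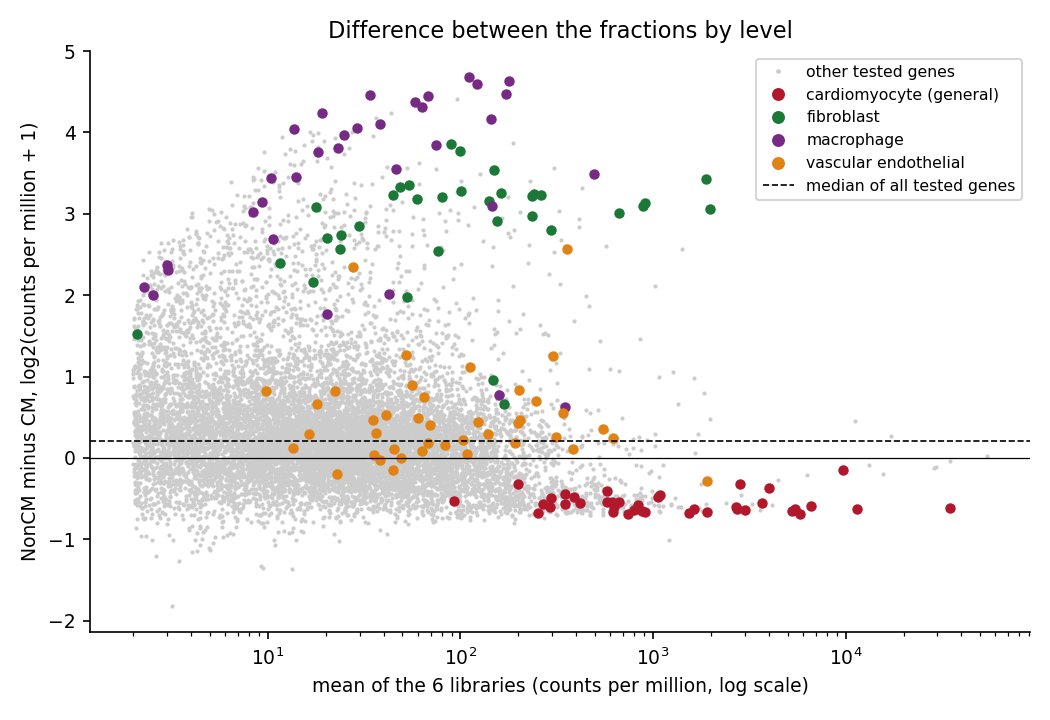
Each point is a gene: the x axis gives its mean over the 6 control libraries in CPM (log scale) and the y axis the NonCM minus CM difference in log2(CPM + 1), with 4 marker lists in colour. Cardiomyocyte markers form a band between -0.69 and -0.15, while fibroblast and macrophage markers reach 3.86 and 4.68.

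The 3 markers that define the main classes were present in both fractions. Myh6 (chr14:54941921-54966927 on mm10, as are all positions of genes), the main heavy chain of mouse cardiac myosin, stood at 41974, 42448 and 43037 CPM in the CM libraries and at 29807, 26664 and 26503 CPM in the NonCM libraries. The groups did not overlap, and the NonCM mean was 65.1% of the CM mean, with a log2 difference -0.62, SE 0.07, adjusted p = 3.91e-05. By mean level Myh6 ranked 2 in the CM fraction and 4 in the NonCM fraction, so the fraction labelled non-cardiomyocyte held abundant RNA of this cardiomyocyte gene.

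Col1a1 (chr11:94936224-94953042), a chain of the fibrillar collagen made by fibroblasts, stood at 199, 179 and 181 CPM in CM and 1645, 1572 and 1578 CPM in NonCM, a mean 8.57-fold higher in NonCM (log2 difference 3.09, SE 0.06, adjusted p = 6.91e-11). Csf1r (chr18:61100598-61132149), the receptor that macrophages need for survival, stood at 15.2, 13.9 and 13.5 CPM in CM and 239.6, 293 and 286 CPM in NonCM, a 19.2-fold higher mean (log2 difference 4.17, SE 0.09, adjusted p = 1.81e-10). Every NonCM library was above every CM library for both genes. The markers differed in the direction that the labels give, while neither fraction lacked the other's marker.

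As a group, the 40 general cardiomyocyte markers were higher in CM for 39 members, against 13.4% of all genes, and none was higher in NonCM. Their median difference was -0.60, their NonCM levels ran from 62.2% to 90.2% of the CM levels with a median of 66.2%, and their summed share of reads was 14.5% ± 0.171 (SD, n = 3) in CM and 9.83% ± 0.50 in NonCM. Without replicate 3 of both fractions 38 of the 40 were higher in CM. Atp2a2, the calcium pump of the sarcoplasmic reticulum, stood at 14228, 13738 and 13784 CPM in CM and 9524, 8516 and 8979.5 CPM in NonCM (log2 difference -0.63, SE 0.06, adjusted p = 1.19e-05). Tnnt2, cardiac troponin T, stood at 6419.8 ± 75.2 CPM (mean ± SD) in CM and 4095 ± 364 CPM in NonCM. Ttn, the giant spring protein of the sarcomere, was the exception: it stood at 9973, 10561 and 10127 CPM in CM and 8888, 9592 and 9180.2 CPM in NonCM, 90.2% of the CM mean, and did not pass the test (log2 difference -0.15, SE 0.06, adjusted p = 0.0552), although it did with TMM scaling (-0.39). Ryr2, the calcium release channel, was at 79.9% of its CM level and passed (log2 difference -0.32, SE 0.06, adjusted p = 0.000799).

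**Figure D2:**
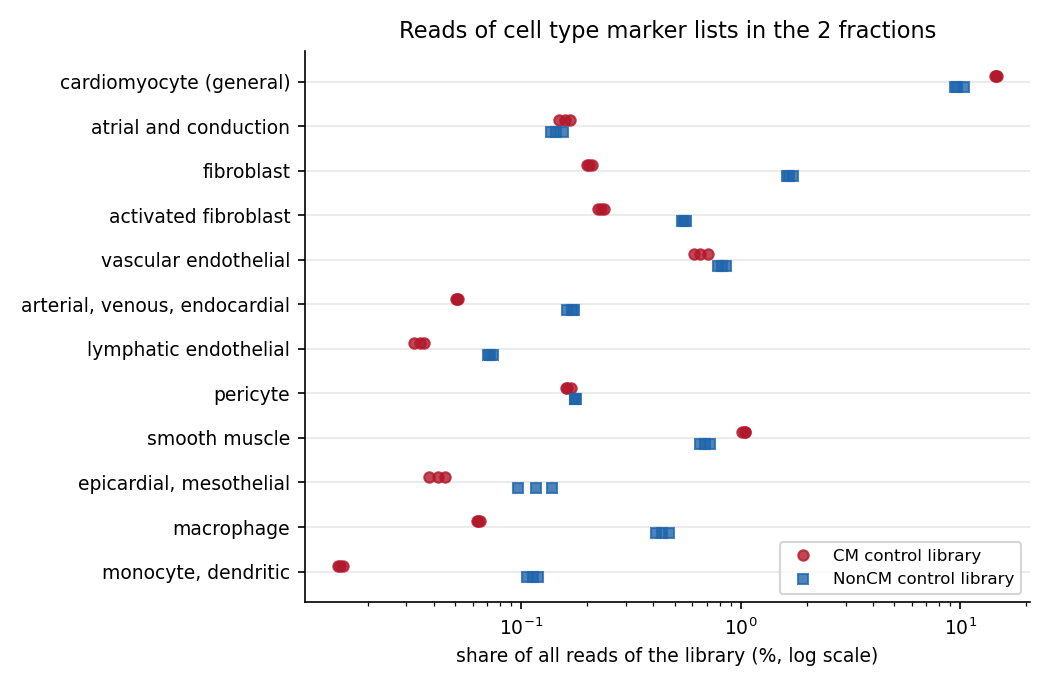
Share of all reads (percent, log axis) taken by each of 12 marker lists in the 3 CM control and 3 NonCM control libraries, 1 point per library. Macrophage markers were at 0.0639% ± 0.00111 of reads in CM and 0.440% ± 0.0298 in NonCM, while pericyte markers were at 0.164% ± 0.00478 and 0.176% ± 0.00128.

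Among the largest CM-higher differences of genes at 20 CPM or more was that of Fitm1, a protein of lipid droplet formation, at 58.6, 54.1 and 51.9 CPM in CM and 22.4, 29.6 and 34.0 CPM in NonCM (log2 difference -0.93, SE 0.13, adjusted p = 0.000184). Pfkfb2, the cardiac kinase that stimulates glycolysis, stood at 43.9, 40.0 and 43.7 CPM and 23.3, 25.6 and 23.5 CPM, and Pank1, a kinase of coenzyme A synthesis, at 92.4, 94.4 and 89.2 CPM and 50.9, 53.2 and 55.1 CPM. These genes were chosen by a rule that asks for no overlap between the libraries of the 2 fractions. Lgals4, a galectin, and Tmem82, a membrane protein, differed by -0.94 and -0.88. Rbfox1, a splicing regulator of heart muscle and neurons, Grb14, an adaptor of the insulin receptor, and Mapt, the microtubule protein tau, differed by -0.81, -0.77 and -0.78.

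Within the contractile gene families, isoforms differed in direction. The actins of striated and smooth muscle were higher in CM and the cytoplasmic actins were higher in NonCM, as plotted by library for 4 families. Actc1, cardiac alpha actin, stood at 7545, 6798 and 7168 CPM in CM and 4679.6, 4171 and 4526 CPM in NonCM (log2 difference -0.69, SE 0.06, adjusted p = 8.24e-06). Actb, cytoplasmic beta actin of the cell cortex, stood at 524, 398 and 454 CPM in CM and 1364, 1134 and 1274 CPM in NonCM (log2 difference 1.46, SE 0.10, adjusted p = 6.14e-07). Acta2, smooth muscle alpha actin, followed Actc1, with 451, 485 and 465 CPM in CM and 299, 303 and 298 CPM in NonCM (log2 difference -0.64, SE 0.05, adjusted p = 2.63e-06). Per kilobase of exon, Actc1 had 4432 CPM in CM and 2756 in NonCM and Acta2 had 213 and 136, so the level of Acta2 was well below that of Actc1 in both fractions. Acta1, skeletal alpha actin, had a difference of -0.68, and Actg1, the other cytoplasmic actin, had one of 0.43. Actg1 did not pass with TMM scaling or without replicate 3 of both fractions.

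**Figure D3:**
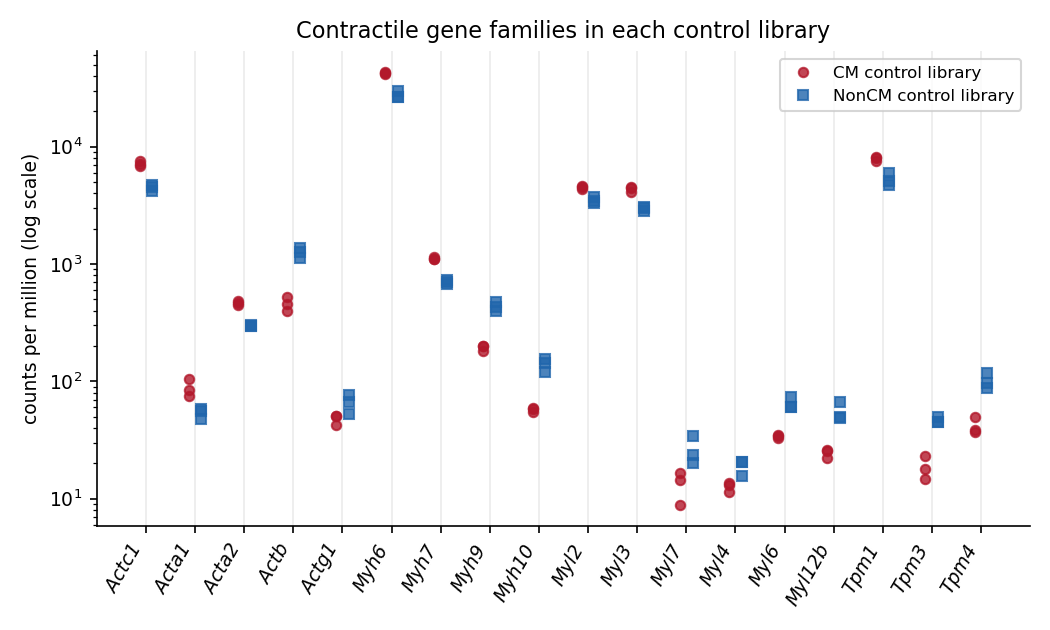
CPM (log axis) of 18 actin, myosin and tropomyosin genes in each control library, with CM libraries as circles and NonCM libraries as squares. Actc1, Acta1, Acta2, Myh6, Myh7, Myl2, Myl3 and Tpm1 are higher in CM, while the other genes plotted are higher in NonCM. The plot leaves out some tested members, among them Myl9 and Myl12a, also higher in CM, and Myh11, Myh14 and Tpm2.

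Among the myosin heavy chains, Myh7, the slow cardiac chain, was higher in CM (-0.67), and the nonmuscle chains Myh9 and Myh10 were higher in NonCM (1.17 and 1.25). Myh14, also a nonmuscle chain, was not called higher in NonCM, and its difference was negative. Myh11, the smooth muscle chain, had a difference of 0.44 (adjusted p = 0.0288), and its libraries overlapped between the fractions. Of the 8 myosin light chains tested, 4 were higher in CM, namely the ventricular Myl2 and Myl3 (-0.37 and -0.55), Myl9 (-0.32) and Myl12a (-0.38). The 4 higher in NonCM were the atrial Myl7 and Myl4 (0.92 and 0.53) and also Myl6 and Myl12b (0.91 and 1.11). Among tropomyosins, muscle Tpm1 was at -0.59 and the cytoskeletal Tpm3 and Tpm4 were at 1.31 and 1.26. Tpm2, also a muscle tropomyosin, was not called higher in CM. Myh11 and Myl4 did not pass with TMM scaling, and these and Myl9 did not pass without replicate 3 of both fractions.

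Promoter sequences of Actc1, Acta1 and Acta2 are shown because these 3 muscle actins were higher in CM, unlike the cytoplasmic ones. They are the 200 bases before the RefSeq start (GRCm38.p6) on the strand of the gene, with the CArG box, the site bound by serum response factor (Srf), in capitals. The CArG box reads the same on both strands and was searched in the 250 bases before the start.
Actc1 (chr2:114052876-114053075, minus strand): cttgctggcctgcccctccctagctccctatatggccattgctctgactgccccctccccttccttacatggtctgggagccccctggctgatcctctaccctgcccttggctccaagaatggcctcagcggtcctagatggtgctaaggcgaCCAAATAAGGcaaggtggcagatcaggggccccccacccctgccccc
Acta1 (chr8:123894776-123894975, minus strand): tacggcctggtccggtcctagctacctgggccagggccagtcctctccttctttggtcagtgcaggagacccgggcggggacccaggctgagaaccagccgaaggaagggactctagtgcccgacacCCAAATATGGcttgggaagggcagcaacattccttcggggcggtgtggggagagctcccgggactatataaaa
Acta2 (chr19:34255374-34255573, minus strand): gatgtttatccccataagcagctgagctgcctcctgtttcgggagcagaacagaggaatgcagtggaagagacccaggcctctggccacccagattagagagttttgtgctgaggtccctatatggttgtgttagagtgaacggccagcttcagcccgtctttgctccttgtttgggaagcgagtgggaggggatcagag
The box began 47 bases before the start in Actc1 and 73 before it in Acta1. No exact match was found in the window of Acta2, but its printed bases hold stretches that miss the pattern by a single base. The promoter source had no entry for Actb, so that cytoplasmic actin was not compared. Of the 33 general cardiomyocyte markers with an entry, 5 (15.2%) held the box (Myl3, Actc1, Ldb3, Myom1 and Nebl), against 439 (1.62%) of 27025 genes with an entry. A match describes the letters only and no binding was measured. Srf itself was higher in CM (log2 difference -0.41).

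Genes of energy supply were higher in CM. Of 48 nuclear-encoded subunits of the respiratory chain and ATP synthase, 47 were higher in CM (median -0.47), and of 28 genes of fatty acid oxidation 27 were (median -0.57). Ndufa10, a subunit of complex I, stood at 525, 513 and 532 CPM in CM and 352, 315 and 318 CPM in NonCM (log2 difference -0.67, SE 0.06, adjusted p = 4.29e-06). Cpt1b, the muscle carnitine palmitoyltransferase that lets fatty acids into the mitochondrion, had the largest difference of its list, at 18.4, 20.7 and 17.9 CPM in CM and 6.90, 9.37 and 11 CPM in NonCM (log2 difference -1.01, SE 0.17, adjusted p = 0.000465). Acot2, a mitochondrial acyl-CoA thioesterase, stood at 241, 241 and 241 CPM in CM and 139, 136 and 141 CPM in NonCM. Atp5e, a small subunit of ATP synthase, was the respiratory gene that did not pass (-0.09).

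Of the mitochondrially encoded genes 3 of 15 were higher in CM and 12 did not pass, with a median of -0.11, and with TMM scaling 9 were higher in CM. The largest difference was that of mt-Rnr1, the small mitochondrial ribosomal RNA, at 1629.8, 1689 and 1550.1 CPM in CM and 999.9, 749 and 695 CPM in NonCM (log2 difference -1.01, SE 0.11, adjusted p = 2.48e-05). In the Wls fl/fl libraries mt-Rnr1 was not called. mt-Co1, a mitochondrially encoded cytochrome oxidase subunit, was the most abundant gene of both fractions, at 53728 ± 839 CPM in CM and 54860.3 ± 4319 CPM in NonCM. Mitochondrial sequences have near-identical nuclear copies, so these counts are uncertain. In glycolysis 15 of 21 genes were higher in CM and 2 were higher in NonCM. Slc2a4, the insulin-regulated glucose transporter of muscle, was higher in CM (-0.70), while Slc2a1, the glucose transporter of most other cells, and Slc16a3, a lactate exporter, were higher in NonCM (0.59 and 0.96). Neither of the last 2 passed without replicate 3 of both fractions, and Slc2a1 did not pass with TMM scaling.

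Calcium handling, ion channels and cell junctions gave the same direction. Higher in CM, against 13.4% of all genes, were 14 of 20 calcium release and coupling genes (median -0.48), 16 of 23 potassium and sodium channel genes (median -0.53) and 14 of 21 gap junction and intercalated disc genes (median -0.56). Kcnk3, a background potassium channel, stood at 293, 309 and 310.3 CPM in CM and 187, 186 and 189 CPM in NonCM (log2 difference -0.70, SE 0.05, adjusted p = 1.64e-06). Scn7a, a relative of the sodium channels, went the other way, with 18.2, 19.5 and 18.6 CPM in CM and 134, 165 and 146 CPM in NonCM (log2 difference 2.91, SE 0.09, adjusted p = 1.54e-09). Bin1, a membrane-bending protein of the T-tubule, was also higher in NonCM (1.96). Of 24 cardiac transcription factors, 18 were higher in CM, with the coactivator of mitochondrial genes Ppargc1a at -0.65 and Nkx2-5 at -0.53. Mef2c was the 1 higher in NonCM (0.32) and Tbx20 did not pass (0.24). Mef2c did not pass with TMM scaling or without replicate 3 of both fractions, where 12 factors were higher in CM.

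Genes that mark the atria differed about as often as all genes did. Of 20 tested, 8 were higher in NonCM and 4 were higher in CM, against 38.4% and 13.4% of all genes, with a median of 0.00 (-0.23 with TMM scaling), and without replicate 3 of both fractions the counts were 5 and 1. With upper quartile scaling they were 4 and 9. Myl7, the atrial light chain, stood at 16.5, 8.89 and 14.6 CPM in CM and 34.5, 20.1 and 23.4 CPM in NonCM (log2 difference 0.92, SE 0.23, adjusted p = 0.00683). Myl7 did not pass with upper quartile scaling, and in the Wls fl/fl libraries neither Myl7 nor the atrial Myl4 was called. Sln, the atrial regulator of the calcium pump, was at 1.63 ± 0.104 CPM in CM and 3.67 ± 0.568 CPM in NonCM, and passed the level filter only through NonCM. Nppa, the atrial natriuretic peptide, stood at 40.4, 58.4 and 40.7 CPM in CM and 39.6, 36.9 and 34.0 CPM in NonCM and did not pass (log2 difference -0.31, SE 0.14, adjusted p = 0.0821). Nppa was called higher in CM with TMM scaling (-0.54). Kcnj3, an atrial potassium channel subunit, was higher in CM (-0.64). Part of the NonCM-higher list, such as Dkk3 (2.33) and Nr2f2 (0.96), is also expressed by fibroblasts or venous endothelium.

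Fibroblast markers were all higher in NonCM: 34 of 34, against 38.4% of all genes, with a median difference of 3.09. Their share of reads was 0.204% ± 0.00536 in CM and 1.67% ± 0.0491 in NonCM (8.19-fold), while the cardiomyocyte markers were at 66.2% of their CM level. Gsn, an actin-severing protein abundant in cardiac fibroblasts, stood at 302, 339 and 317 CPM in CM and 3122, 3815 and 3458 CPM in NonCM (log2 difference 3.43, SE 0.08, adjusted p = 1.81e-10). Pdgfra, the receptor that marks resident fibroblasts, stood at 42.0, 47.6 and 44.8 CPM in CM and 384, 492 and 402 CPM in NonCM (log2 difference 3.21, SE 0.09, adjusted p = 9.29e-10). The largest differences were those of Scara5 and Pi16, which mark adventitial fibroblasts (15.7-fold and 14.4-fold). The smallest were those of Fbln1 and Ogn, matrix proteins at 1.94-fold and 1.59-fold.

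Activated fibroblast and myofibroblast genes were less uniform. Of 34 tested among 42 listed, 24 were higher in NonCM, 3 were higher in CM and 7 did not pass. Fn1, fibronectin, stood at 95.4, 83.9 and 90.1 CPM in CM and 547, 492 and 531 CPM in NonCM (log2 difference 2.53, SE 0.07, adjusted p = 4.89e-10). Postn, periostin of the healing scar, stood at 49.4, 40.8 and 49.6 CPM in CM and 313, 189.5 and 238 CPM in NonCM (log2 difference 2.36, SE 0.15, adjusted p = 4.86e-07). Runx1, which passed the level filter only through NonCM, and Tgfbi had the largest folds of the list (28.3-fold and 23.3-fold). Both folds were above the largest of the fibroblast markers (15.65-fold) and within the range of the macrophage markers (1.55-fold to 35.64-fold). Which cells held their RNA was not tested. The 3 genes higher in CM were Acta2, Lrrc15 and Thbs4 (-0.64, -0.65 and -0.59), with Thbs4, a matricellular protein also made by stressed cardiomyocytes, at 85.6, 62.1 and 69.0 CPM in CM and 50.9, 44.4 and 46.8 CPM in NonCM. In the Wls fl/fl libraries Thbs4 was not called and its difference had the opposite sign (0.82).

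All 23 collagens tested were higher in NonCM (median 2.65), but by very different amounts. The fibrillar Col3a1 stood at 464, 385 and 427 CPM in CM and 3667, 3448 and 3521 CPM in NonCM (log2 difference 3.06, SE 0.07, adjusted p = 1.86e-10). Of the basement membrane collagens, Col15a1 was 7.16-fold higher in NonCM, whereas Col4a1 and Col4a2, the main chains of collagen IV, were 1.59-fold and 1.22-fold higher. Col4a2 did not pass with TMM scaling (difference 0.05) or without replicate 3 of both fractions. Basement membrane genes in general gave 15 higher in NonCM and 1 in CM of 19. Nid1 and Lamc1, linker and laminin chain, differed by 2.60 and 2.11, while Lamb2, the laminin beta 2 chain, was the gene higher in CM (-0.13), though not without replicate 3 of both fractions.

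Endothelial genes ranged from near equality to several-fold higher in NonCM. Of 41 vascular endothelial markers, 23 were higher in NonCM, 1 was higher in CM and 17 did not pass (median 0.36), against 38.4% and 13.4% of all genes. Their share of reads was 0.656% ± 0.0475 in CM and 0.822% ± 0.0369 in NonCM, a ratio of 1.25. The median changed sign with scaling: it was 0.12 with TMM and -0.05 with upper quartile factors, with which 10 genes were higher in NonCM and 10 in CM. Without replicate 3 of both fractions, 17 were higher in NonCM and 0 in CM.

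Cldn5 and Kdr, chosen after their values were seen, had differences near that of all genes or below it. Cldn5, a tight junction protein, stood at 37.8, 38.1 and 39.7 CPM in CM and 35.3, 39.0 and 39.1 CPM in NonCM, and its libraries overlapped (-0.03, adjusted p = 0.807). Kdr, the main VEGF receptor, stood at 196, 165 and 179 CPM in CM and 224, 184 and 205 CPM in NonCM and also overlapped (0.18, adjusted p = 0.0988). Cd36, a fatty acid carrier that cardiomyocytes share with capillary endothelium, was the 1 gene higher in CM (-0.29). A p that misses the threshold does not show equality. With TMM scaling Cldn5 was called higher in CM (-0.26), and Cd36 did not pass without replicate 3 of both fractions.

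Genes of larger vessels and the inner heart wall were higher in NonCM. Vwf, von Willebrand factor of venous and endocardial endothelium, stood at 105, 99.2 and 104 CPM in CM and 582, 647 and 619 CPM in NonCM (log2 difference 2.57, SE 0.06, adjusted p = 1.9e-10). Npr3, a natriuretic peptide receptor of the endocardium, stood at 42.0, 40.8 and 41.4 CPM in CM and 238, 271 and 258 CPM in NonCM (log2 difference 2.59, SE 0.07, adjusted p = 4.65e-10). Plvap, a protein of fenestrated and endocardial endothelium, was 5.62-fold higher in NonCM, Eng and Emcn were 2.40-fold and 2.45-fold higher, and Pecam1, the general endothelial marker, was 1.78-fold higher. Of 22 arterial, venous and endocardial markers tested, 18 were higher in NonCM and none was higher in CM (median 1.22).

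**Figure D4:**
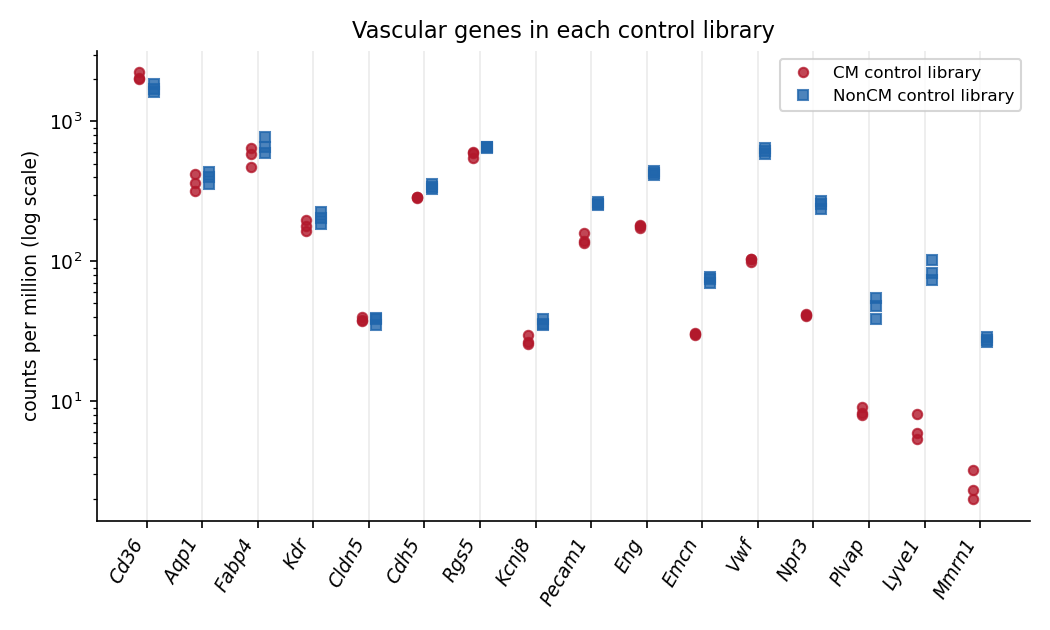
CPM (log axis) of 16 vascular genes in each control library, CM as circles and NonCM as squares. From Cd36 to Kcnj8 the fractions lie close together or overlap, and from Pecam1 onward every NonCM library lies above every CM library.

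Lymphatic markers were higher in NonCM for 10 of 12 (median 2.13). Lyve1, which macrophages also express, stood at 5.97, 8.12 and 5.37 CPM in CM and 74.1, 102 and 82.3 CPM in NonCM, and Mmrn1, found in lymphatic endothelium, at 3.23, 2.32 and 2.00 CPM in CM and 27.6, 28.8 and 26.7 CPM in NonCM (log2 difference 3.04, SE 0.17, adjusted p = 1.34e-07). Prox1, the lymphatic master regulator that cardiomyocytes also express, was higher in CM (-0.33), though not without replicate 3 of both fractions.

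Of the pericyte genes, 11 of 19 were higher in NonCM and 1 in CM, with a median of 0.41, against 38.4% and 13.4% of all genes. Rgs5, the most used pericyte marker, stood at 549.7, 604 and 593 CPM in CM and 646, 661 and 658 CPM in NonCM (log2 difference 0.17, SE 0.05, adjusted p = 0.0198), and its difference was -0.07 with TMM scaling. It did not pass with that scaling or without replicate 3 of both fractions. Abcc9, the potassium channel subunit that cardiomyocytes share, was the 1 gene higher in CM (-0.38), and Notch3 was 1.67-fold higher in NonCM. Under TMM scaling 5 pericyte genes were higher in NonCM and without replicate 3 of both fractions 6 were. Of 18 smooth muscle genes, 6 were higher in NonCM, a share below that of all genes, and 8 in CM, and the median changed sign with scaling, from 0.11 to -0.09 with TMM, where 3 were higher in NonCM. The CM-higher members include Des, Pln and Casq2, which cardiomyocytes express strongly, while Cald1 and Tagln were higher in NonCM (1.28 and 0.95).

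Epicardial and mesothelial genes, which mark the outer layer of the heart, were higher in NonCM for 18 of 19 (median 1.99). Upk3b, a mesothelial membrane protein, stood at 8.40, 4.45 and 9.21 CPM in CM and 47.4, 22.1 and 39.1 CPM in NonCM (log2 difference 2.14, SE 0.29, adjusted p = 0.000106). The libraries varied: NonCM replicate 1 was highest and replicate 2 lowest for Upk3b, and so were they for Msln (38.8, 18.0 and 29.8 CPM). The gene higher in CM was Clu (-0.28), which did not pass without replicate 3 of both fractions.

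The macrophage list had the highest median difference of the lists described here. All 33 tested were higher in NonCM, with a median of 3.76, and the share of reads was 0.0639% ± 0.00111 in CM and 0.440% ± 0.0298 in NonCM (6.88-fold). Cd163, a scavenger receptor of resident macrophages, stood at 7.27, 7.73 and 6.91 CPM in CM and 174, 261 and 208 CPM in NonCM (log2 difference 4.68, SE 0.13, adjusted p = 7.55e-10), the largest difference of the list on the log2(CPM + 1) scale, though not the largest fold. Lyz2, lysozyme of myeloid cells, stood at 7.91, 9.47 and 8.90 CPM in CM and 226, 240.0 and 237 CPM in NonCM (log2 difference 4.59, SE 0.09, adjusted p = 6.91e-11). F13a1, Mrc1, C1qa and Adgre1, also macrophage genes, were 26.7-fold, 23.5-fold, 25.8-fold and 32.8-fold higher. Ctsb, a lysosomal protease that most cells make, was only 1.55-fold higher.

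The promoter of Mrc1, the mannose receptor gene, is shown because Mrc1 was among the genes of largest difference and its promoter holds 3 copies of GAGGAA, the core of the site of the myeloid factor Pu.1, all on the strand opposite to the gene and so printed in capitals as TTCCTC. The sequence is that of the 200 bases before the RefSeq start on the plus strand (GRCm38.p6).
Mrc1 (chr2:14229214-14229413, plus strand): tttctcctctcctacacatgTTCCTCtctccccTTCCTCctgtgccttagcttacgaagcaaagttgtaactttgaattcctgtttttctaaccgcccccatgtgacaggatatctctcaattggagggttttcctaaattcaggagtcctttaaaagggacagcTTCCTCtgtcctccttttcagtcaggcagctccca
GAGGAA was searched on both strands in the 250 bases before the start. It was found in 15 (60%) of 25 macrophage markers with an entry, against 6986 (25.9%) of 27025 genes. The motif is also the core of sites of other Ets factors, and a match is no site.

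Antigen presentation genes were also higher in NonCM. Cd74, the invariant chain of class II, stood at 8.56, 7.15 and 7.37 CPM in CM and 203, 167 and 183 CPM in NonCM (log2 difference 4.41, SE 0.10, adjusted p = 2e-10), and H2-Ab1 was 22.3-fold higher. Cybb, a subunit of the phagocyte oxidase, Laptm5, a lysosomal protein of leukocytes, and Cd14, a receptor for bacterial products, were 23.8-fold, 21.6-fold and 21.8-fold higher. Ccr2, which marks recruited monocytes, stood at 0.646, 0.193 and 1.07 CPM in CM and 11.2, 12.5 and 10.7 CPM in NonCM, and passed the level filter only through NonCM. Of 17 class I and class II genes tested 17 were higher in NonCM (median 1.37), against 38.4% of all genes. So were 14 of 17 complement genes and 17 of 20 interferon-stimulated genes (medians 3.02 and 0.99). Low members of these lists can pass the level filter only through NonCM, so the counts describe the tested genes and are no test. Without replicate 3 of both fractions 10 interferon-stimulated genes were higher.

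Few markers of neutrophils and lymphocytes were detected. Of 24 neutrophil markers only 3 passed the level filter, with Csf3r at 3.45, 4.69 and 4.32 CPM in NonCM. Of 32 lymphocyte and mast cell markers 9 passed, and the genes that define T cells (Cd3e, Cd3d and Cd3g) stayed under 1 CPM in every library. Cma1, a mast cell protease, stood at 0.162, 0.193 and 0 CPM in CM and 10.3, 5.80 and 7.56 CPM in NonCM, and Ighm, the antibody heavy chain of B cells, at 1.78, 2.13 and 2.76 CPM and 31.9, 22.9 and 29.8 CPM. Hbb-bs, adult beta globin of red cells, stood at 13.6, 34.8 and 23.3 CPM in CM and 246, 476 and 335 CPM in NonCM, with replicate 2 highest in both fractions. Of 8 erythroid and platelet markers tested 6 were higher in NonCM. The 3 neutrophil markers and Cma1 passed the level filter only through NonCM.

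Wls itself was higher in NonCM, at 66.4, 54.7 and 60.7 CPM against 38.4, 31.5 and 33.1 CPM in CM (log2 difference 0.80, SE 0.10, adjusted p = 7.68e-05). Of the 19 Wnt ligands listed, 6 passed the level filter and 4 were higher in NonCM, but without replicate 3 of both fractions only 1 was. Wnt5a, a ligand of the noncanonical pathway, stood at 13.1, 10.6 and 11.1 CPM in CM and 21.6, 21.6 and 23.6 CPM in NonCM (log2 difference 0.89, SE 0.12, adjusted p = 0.000141). Wnt7b, the 1 ligand called higher in CM, stood at 5.65, 5.41 and 5.06 CPM in CM and 0, 1.56 and 1.3 CPM in NonCM, with no read in NonCM replicate 1, and passed the level filter only through CM. Wnt11, Wnt5b and Wnt2b were higher in NonCM at low levels (5.32, 3.63 and 3.49 CPM), of which Wnt5b and Wnt2b passed the filter only through NonCM, and Wnt9a did not pass (0.44, adjusted p = 0.147).

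Wnt receptors and transporters were higher in NonCM for 15 of 26 and higher in CM for 1, against 38.4% and 13.4% of all genes, or for 7 and 6 with upper quartile scaling. Ror2, the noncanonical receptor kinase, stood at 2.42, 1.16 and 1.53 CPM in CM and 8.62, 8.59 and 8.96 CPM in NonCM, and passed the level filter only through NonCM. Fzd1, Fzd7 and Fzd4, frizzled receptors, differed by 1.24, 1.03 and 0.65. Sfrp1, a secreted antagonist, was 11.1-fold higher in NonCM (81.0, 96.4 and 89.4 CPM against 8.40, 9.09 and 6.60 CPM in CM).

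Of 43 genes listed as growth factors, 25 were higher in NonCM and 6 in CM (11 with TMM scaling), against 38.4% and 13.4% of all genes, so that the share in CM was near that of all genes. The genes higher in CM were Vegfa and Vegfb, which act on endothelium (-0.60 and -0.72), and Fgf1, Fgf9, Fgf13 and Fgf16 of the fibroblast growth factor gene family (-0.63, -0.70, -0.58 and -0.59). Vegfa stood at 289.6, 243 and 292 CPM in CM and 219, 148 and 180.5 CPM in NonCM, while its receptor Kdr did not pass. Igf1, an insulin-like growth factor, stood at 15.5, 17.2 and 15.7 CPM in CM and 108, 119.9 and 111 CPM in NonCM (log2 difference 2.73, SE 0.08, adjusted p = 1.74e-09). Of 42 receptors 29 were higher in NonCM, and the 3 higher in CM were Ednra, Erbb4 and Insr (-0.50, -0.36 and -0.28). Erbb4 is the neuregulin receptor of cardiomyocytes, and its ligand Nrg1 had means of 0.866 CPM in CM and 4.30 CPM in NonCM and passed the level filter only through NonCM. Fgf16 and these 3 receptors did not pass without replicate 3 of both fractions.

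Among Hippo pathway genes, 15 of 24 were higher in NonCM and 3 in CM, against 38.4% and 13.4% of all genes, or 7 and 6 with upper quartile scaling. Yap1, the effector, stood at 106, 99.4 and 104 CPM in CM and 98.3, 96.7 and 106 CPM in NonCM and did not pass (-0.04), but was called higher in CM with TMM scaling (-0.28). Its partner Tead1 was higher in CM (-0.39), while Axl, a receptor kinase and Yap target that macrophages also use, was 10.9-fold higher in NonCM. Among integrins, Itga7, the laminin receptor of muscle, was higher in CM (-0.55), Itgb2 and Itga4 of leukocytes were higher in NonCM (14.8-fold and 10.5-fold, with Itgb2 past the level filter only through NonCM), and the shared chain Itgb1 did not pass (0.05) but was called higher in CM with TMM scaling (-0.19).

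**Figure D5:**
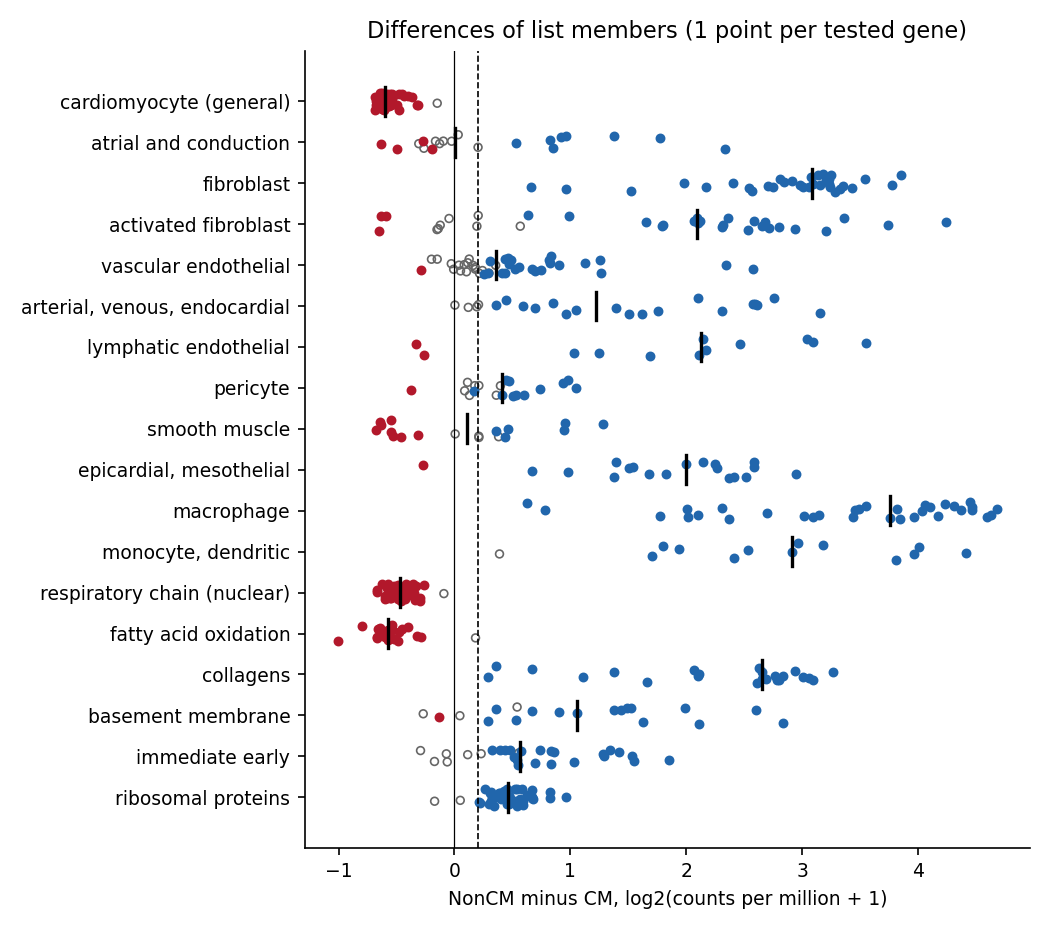
Each point is a tested gene, placed by its NonCM minus CM difference in log2(CPM + 1) and grouped by list, with blue for genes called higher in NonCM, red for genes called higher in CM, open circles for genes not called, a bar for the list median and a dashed line at the median of all genes (0.20). The medians of the cardiomyocyte, respiratory chain and fatty acid lists lie left of 0, and every gene of the fibroblast, macrophage and collagen lists lies right of it.

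Of 27 mitosis genes 19 were below the level filter, and 6 of the 8 tested were higher in NonCM, against 38.4% of all genes. Low members can pass the level filter only through NonCM, so this count describes the tested genes and is no test of the list. Mki67 stood at 3.07, 3.48 and 3.99 CPM in CM and 18.1, 17.3 and 17.4 CPM in NonCM (log2 difference 2.05, SE 0.15, adjusted p = 1.39e-06). Among S phase genes, 9 of 17 tested were higher in NonCM. The S phase count was 7 with TMM scaling, 6 with upper quartile scaling and 6 without replicate 3 of both fractions. Of 28 immediate early and dissociation genes 21 were higher in NonCM (median 0.56), or 11 with upper quartile scaling, with Fos at 98.5, 93.8 and 97.4 CPM in CM and 239.6, 240.5 and 229.7 CPM in NonCM (log2 difference 1.28, SE 0.06, adjusted p = 2.72e-08). These genes respond to tissue digestion as well as to injury, and their part in the differences was not tested. Ribosomal protein genes were higher in NonCM for 38 of 40 (median 0.46), and the number was 23 with TMM scaling, 11 with upper quartile scaling and 29 without replicate 3 of both fractions.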

How the data were processed

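RNA-seq of 12 libraries was deposited as 2 tables of gene values, 1 per fraction. Per the submitters' processing notes, the tools were STAR and DESeq2 and the build was mm10. The sources used here do not give the counting tool, annotation, strand setting or versions. The deposited values were read as a signal, counts divided by size factors of the authors, since in each library 100% of the values were whole multiples of 1 read within 0.01 reads. Reads were recovered from these. The tables were joined by symbol, and each column was divided by its own sum to give CPM, which cancels the size factor. Date-like symbols (27) were left out, and 44021 symbols (93.7%) matched 1 gene of GENCODE M21.

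Genes with a mean of 2 CPM or more over the 6 control libraries were tested with limma 3.58.1 in R 4.3.3 (trended empirical Bayes) on log2(CPM + 1), NonCM minus CM, 3 against 3, and p-values adjusted by Benjamini-Hochberg were called under 0.05. A fold on this scale understates the change of low genes. An exact permutation test of 3 against 3 could not give a p below 0.1. edgeR 4.0.16 on the recovered reads, with TMM factors, called 3431 genes higher in NonCM and 3369 in CM. DESeq2 1.42.0, limma-voom, other scalings, pseudocounts, filters, left-out libraries and the Wls fl/fl libraries were further alternatives. The fit was tested on simulated data.

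Members and lists were chosen with earlier results of these data known. Named genes were Myh6, Col1a1, Csf1r and Wls, the 15 largest differences in each direction (mean of 20 CPM or more, no overlap between groups), the 4 most abundant and the 2 most different genes of each list, the tested Wnt ligands, frizzled, Ror and Ryk genes, and the contractile families. Atp5e, Ccr2, Cldn5, Ednra, Emcn, Eng, Erbb4, Esr1, Fbln1, Fgf13, Fgf16, Fgf9, Fos, Gm21747, Kcnj3, Kcnj8, Kdr, Lamb2, Ldb3, Lrrc15, Mef2c, Mmrn1, Msln, Myom1, Nebl, Nkx2-5, Nr2f2, Nrg1, Ogn, Pecam1, Postn, Slc2a1, Srf, Tagln, Thbs4, Upk3b, Vegfb and Yap1 were chosen after their values were seen. Promoter sequences come from RefSeq (GRCm38.p6), and motifs were searched by exact match.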

Additional observations from a re-analysis of the deposited data

Results flagged for a closer look

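The difference between the fractions was tested for a change between genotypes in Myh6, Col1a1, Csf1r and Wls, with p-values adjusted over all genes. For Wls the NonCM minus CM difference was larger in the Wls fl/fl hearts than in the control hearts, at 1.95 against 0.80 on the log2 scale (interaction 1.15, SE 0.20, limma adjusted p = 0.0231). It was flagged because the same contrast differed between the 2 genotypes. Wls is the floxed gene, and its level in the CM libraries was lower in Wls fl/fl than in control. The interaction was -0.26 for Myh6 (adjusted p = 0.241), 0.47 for Col1a1 (adjusted p = 0.121) and 0.50 for Csf1r (adjusted p = 0.089), and did not pass for these.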

How the results depend on the processing

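For the 5 lists with shares given, the direction of the read share held with each library left out, while the balance of calls moved with the scaling. Genes higher in NonCM numbered 4697, and 3050 with TMM scaling, 2429 with upper quartile scaling and 2710 with DESeq2. Genes higher in CM numbered 1642, and 3040 with TMM scaling, 4414 with upper quartile scaling, 3369 with edgeR, 3434 with limma-voom, 922 without replicate 3 of both fractions and 2497 in the Wls fl/fl libraries. Genes at least 2-fold higher in NonCM numbered 1744, and 1044 with a pseudocount of 5 and 927 with a minimum mean of 10 CPM, which tests fewer genes. Genes at least 2-fold higher in CM numbered 17, and 61 with TMM scaling, 330 with upper quartile scaling, 2 with a pseudocount of 5, 6 with a minimum mean of 10 CPM, 106 with edgeR, 82 with DESeq2, 107 with limma-voom and 26 without replicate 3 of both fractions. With 1 library left out at a time, the 4 counts ran from 4047 to 4786, from 1229 to 1887, from 1670.0 to 1808 and from 11 to 34. TMM and upper quartile factors rescale whole libraries by construction. The edgeR and limma-voom fits used TMM factors and DESeq2 its own size factors, so these also rescaled whole libraries. The cause of the other moves was not tested.

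Most of the differences that changed sign were near 0, but that of Thbs4 was -0.59 in the control libraries. With TMM scaling the log2 difference was -0.19 for Itgb1, -0.058 for Kdr, -0.068 for Rgs5 and -0.003 for Tbx20. With upper quartile scaling it was -0.35, -0.22, -0.23 and -0.16 for these, -0.11 for Col4a2 and -0.083 for Mef2c. With edgeR it was -0.18 for Itgb1, -0.068 for Kdr, -0.058 for Rgs5 and -0.014 for Tbx20, with DESeq2 -0.18 for Itgb1, -0.061 for Kdr and -0.051 for Rgs5, and with limma-voom -0.19 for Itgb1, -0.084 for Kdr, -0.047 for Rgs5 and -0.062 for Tbx20. In the Wls fl/fl libraries it was 0.21 for Cldn5, 0.82 for Thbs4, 0.29 for Malat1 and 0.45 for Neat1. For Cldn5 it ran from -0.051 to 0.019 with 1 library left out at a time. Of 153 genes given with values, 132 kept direction and call without replicate 3 of both fractions, and 21 lost the call.

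No paired analysis was possible because the labels do not say which CM and which NonCM library came from the same heart. NonCM replicate 1 had the fewest reads, which limits low genes there.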

Other observations

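Several gene groups not described above also differed. Of 15 nuclear and long noncoding transcripts tested, 9 were higher in NonCM and 1 in CM. H19 stood at 47.2, 20.1 and 29.5 CPM in CM and 222, 118 and 167 CPM in NonCM (log2 difference 2.39, SE 0.28, adjusted p = 3.54e-05), with replicate 1 highest and replicate 2 lowest in both fractions. Rian stood at 1.29, 0.580 and 0.921 CPM in CM and 7.76, 5.36 and 5.72 CPM in NonCM and passed the level filter only through NonCM. Mhrt, the antisense RNA of the cardiac myosin locus, was higher in CM (-0.77), but the counting is not stated to use strand, so its reads cannot be told apart from those of Myh6 and Myh7. Malat1 and Neat1, RNAs that stay in the nucleus, did not pass (-0.21 and -0.14).

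Of 29 Schwann cell and neuron markers 18 were below the level filter, and 6 of the 11 tested were higher in NonCM. Cdh19, a cadherin of Schwann cells, stood at 1.29, 3.09 and 2.00 CPM in CM and 10.3, 19 and 15.4 CPM in NonCM (log2 difference 2.35, SE 0.26, adjusted p = 2.9e-05), and Mbp, a myelin protein, at 1.45, 1.35 and 1.07 CPM and 7.76, 5.80 and 7.56 CPM, with Mbp past the level filter only through NonCM. Of 18 adipocyte markers 11 were below the level filter, Adipoq and Plin1 among them. The 7 tested included 4 higher in CM, among them Acsl1 and Lpl, which cardiomyocytes use to take up and activate fatty acids (-0.67 and -0.45). Without replicate 3 of both fractions 2 were higher in CM. Mhrt and Lpl were chosen after their values were seen.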
